A study of Mus musculus with 6 samples.

Results

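Serine synthesis and one-carbon enzymes were examined in brown adipose tissue, the heat-producing fat depot of the mouse. The group was chosen by gene symbol, as every probe set that the platform annotation assigns to Phgdh, Psat1, Psph, Shmt1, Shmt2, Mthfd1, Mthfd2, Mthfd1l or Tyms. Of these 9 members 8 were represented, among 12393 genes tested in all, by 23 probe sets that name 1 gene. Another 3 probe sets name a member together with a pseudogene and were kept apart, and Mthfd1l was not analysed here. The tissue came from 3 control samples, YY1flox/flox, and 3 YY1bKO samples, YY1flox/flox; Ucp1Cre, hybridised singly to Affymetrix arrays. Mice of both groups were 3.5 months old, had a mixed C57BL6 and 129 background, carried floxed Yy1 alleles and ate high fat food for 3 months. The Ucp1 promoter, active in brown adipocytes, drove Cre, so other cells of the tissue are not its target. The comparison asks how transcripts of the tissue differ when brown adipocytes lose the transcription factor Yin Yang 1.

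Cells make serine from an intermediate of glycolysis in 3 steps, catalysed in turn by Phgdh, Psat1 and Psph. Serine then gives a carbon unit to the folate carrier tetrahydrofolate through Shmt1 in the cytosol or Shmt2 in mitochondria. Mthfd1 in the cytosol, and Mthfd2 and Mthfd1l in mitochondria, change the oxidation state of that unit and release or take up formate, and Tyms spends it on thymidylate. The units also feed purine synthesis and methylation, and the stress-responsive transcription factor ATF4 is known to drive several genes of the pathway.

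Yy1 was lower on each YY1bKO array, by -1.43 ± 0.10 on the log2 scale (SE) in its brightest probe set (limma adjusted p = 0.000854). Ucp1, the uncoupling protein whose promoter drove Cre, gave -0.14 and was not called (adjusted p = 0.292). The second principal component, with 36.0% of the variance over genes, set control replicate 2 apart from the other arrays. That array also had the highest mean of 15 skeletal muscle markers, at a log2 intensity of 13.14, against 11.11 and 10.87 on control replicates 1 and 3 and 12.01 to 12.49 on the YY1bKO arrays. The 3-prime minus 5-prime log2 difference of the beta-actin control probe sets was 0.95 there, against 1.57 to 1.65 on the other arrays. That of Gapdh was 0.01, within the -0.04 to 0.03 of the others. Why control replicate 2 stood apart was not tested. All 11 measured markers of brown adipocytes had bright probe sets, with a mean above 6.49 on the log2 scale, the median over probe sets. Their mean was 11.31 ± 0.10 in control and 11.33 ± 0.06 in YY1bKO tissue (SD, n = 3). Brightness does not single out that cell type, since all 15 skeletal muscle and all 8 fibroblast markers were bright too. Of the 11 brown adipocyte markers, 3 were called higher (Elovl3, Ppargc1a and Zic1) and 1 lower (Fabp3). These are 27.3% and 9.09%, beside 10.2% and 8.09% of all genes, dim ones included.

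Transcripts of 3 enzymes were higher in YY1bKO tissue: Psat1 of serine synthesis by 1.95-fold, Shmt1 of the cytosolic folate pathway by 1.68-fold and Mthfd2 of the mitochondrial folate pathway by 1.59-fold. Each is the brightest probe set of its gene, and each passed an adjusted p under 0.05 over all genes, which is what "called" means from here on. The other measured members, Phgdh, Psph, Mthfd1, Tyms and Shmt2, were not called, and none was called lower. The 3 of 8 members called higher, or 37.5%, stand beside 10.2% of all genes called higher and 8.09% called lower. The members were chosen with earlier results of these data known. Of the 8, 7 are bright, whereas the shares over all genes include dim ones. A fit without dim genes called the same 3 members higher. It called 1121 genes higher and 973 lower, with 6918 bright genes besides each called member. Both shares are thus larger among bright genes than among all genes. The median log2 fold change was 0.17 over the 8 members and 0.04 over all genes. For 5 members the groups did not overlap, 4 with the YY1bKO arrays higher and 1 with them lower, which held for 38.5%, 22.8% and 15.7% of all genes. The rise of Psat1, Shmt1 and Mthfd2 was called in every alternative tried, 15 for each gene, the omission of any single array included. Their adjusted p ranged over these alternatives from 0.00183 to 0.0439 for Psat1, from 0.00237 to 0.0339 for Shmt1 and from 0.00336 to 0.0315 for Mthfd2. In a whole tissue, more cells that express a gene and more RNA per cell cannot be told apart.

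**Figure D1:**
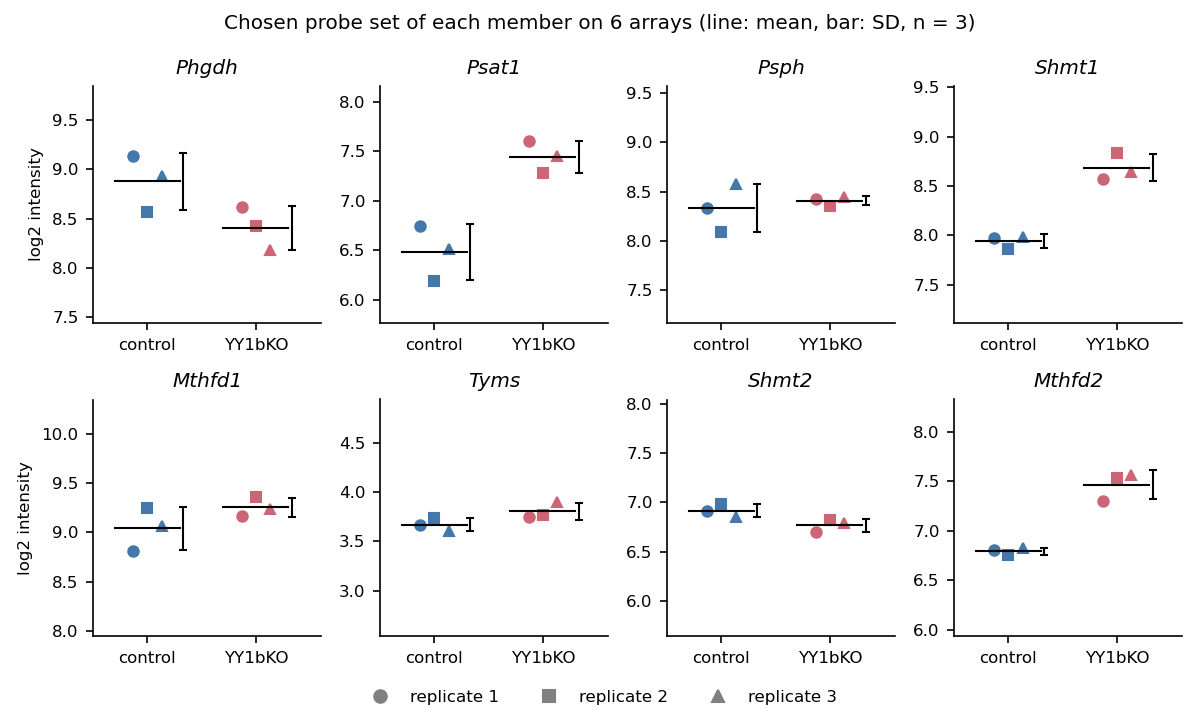
Log2 intensity of the brightest probe set of each of the 8 measured members on 3 control arrays (blue) and 3 YY1bKO arrays (red), with the marker shape giving the replicate, the line the mean and the bar the SD. Every panel spans the same log2 range. Psat1, Shmt1 and Mthfd2 sit above all control arrays on each YY1bKO array, whereas the groups overlap for Phgdh, Psph and Mthfd1.

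The bases just upstream of the starts of the called members are shown because these genes moved the same way, with Phgdh, the first enzyme of serine synthesis, beside them. Each run holds the 250 bases before the start given by RefSeq (GRCm38.p6), read toward the gene, and capitals mark each CCAAT or its reverse complement ATTGG, the CCAAT box of many promoters. That motif was picked after the sequences had been seen.
Psat1, chr19:15925060-15925309, minus strand: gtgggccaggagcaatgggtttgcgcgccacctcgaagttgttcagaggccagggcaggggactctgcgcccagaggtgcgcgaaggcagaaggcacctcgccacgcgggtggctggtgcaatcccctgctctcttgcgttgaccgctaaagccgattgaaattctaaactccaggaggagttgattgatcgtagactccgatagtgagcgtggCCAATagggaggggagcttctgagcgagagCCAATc
Mthfd2, chr6:83317605-83317854, minus strand: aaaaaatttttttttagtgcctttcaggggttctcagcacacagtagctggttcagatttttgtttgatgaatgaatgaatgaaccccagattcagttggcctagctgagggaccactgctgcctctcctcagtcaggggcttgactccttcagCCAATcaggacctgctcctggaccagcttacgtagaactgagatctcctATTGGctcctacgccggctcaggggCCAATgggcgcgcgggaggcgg
Shmt1, chr11:60811266-60811515, minus strand: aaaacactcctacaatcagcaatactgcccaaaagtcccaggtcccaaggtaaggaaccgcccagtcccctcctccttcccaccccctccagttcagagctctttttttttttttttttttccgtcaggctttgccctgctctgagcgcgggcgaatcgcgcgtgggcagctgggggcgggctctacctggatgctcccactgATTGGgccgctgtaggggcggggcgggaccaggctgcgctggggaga
Phgdh, chr3:98339970-98340219, minus strand: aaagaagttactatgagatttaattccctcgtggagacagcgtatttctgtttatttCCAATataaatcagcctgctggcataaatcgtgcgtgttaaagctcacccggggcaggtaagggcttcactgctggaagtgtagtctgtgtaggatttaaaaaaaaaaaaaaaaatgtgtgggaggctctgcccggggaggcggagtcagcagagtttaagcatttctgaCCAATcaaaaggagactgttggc
The runs of Psat1, Shmt1 and Phgdh end where the annotated gene begins, and that of Mthfd2 lies inside the annotated extent of its gene, before the start of the transcript listed. A second listed start of Psat1, chr19:15924623-15924872, is not printed, and its window held 0 matches to that motif. CCAAT was found on either strand in 6 of the 10 member windows and in 37.4% of all 32851 windows of 300 bases. These 6 windows belong to the called Psat1, at its printed start only, Mthfd2 and Shmt1 and to the uncalled Phgdh, Psph and Mthfd1. The motif was thus present in called and uncalled members alike. The ATF4-type motif TGATGNAA was in 0 of the 10 member windows and in 3.97% of all windows, on either strand. The Yin Yang 1 type motif CCATNTT was in 0 of the 10 and in 16.1% of all. These matches concern letters in short windows and say nothing of binding.

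Serine synthesis was uneven across its steps: Psat1 rose, and Phgdh before it and Psph after it were not called. Psat1 transfers an amino group from glutamate to make phosphoserine. Its log2 intensity was 6.75, 6.19 and 6.51 on the control arrays and 7.60, 7.28 and 7.45 on the YY1bKO arrays (replicates 1, 2 and 3). The lowest YY1bKO value lay above the highest control value. The log2 fold change was 0.96 ± 0.16 (SE), with a 95% confidence interval up to 1.34 (adjusted p = 0.00974), and 146 called genes rose by at least as much. A dimmer Psat1 probe set also had groups that did not overlap, 6.55, 5.50 and 6.00 against 7.07, 6.70 and 6.91. Its log2 fold change was 0.87 ± 0.25 (SE), which missed the call over all probe sets (adjusted p = 0.0608) and passed it in 3 of 13 alternatives.

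Phgdh, which oxidises phosphoglycerate in the committing step, did not rise with Psat1. Its brightest probe set gave 9.14, 8.57 and 8.93 in control and 8.62, 8.42 and 8.18 in YY1bKO tissue, so that YY1bKO replicate 1 reached above control replicate 2. The log2 fold change was -0.47 ± 0.18 (SE, adjusted p = 0.117). Its 95% confidence interval, which is not adjusted for the number of genes, ran from -0.89 to -0.05. Without control replicate 2, the array with the highest muscle markers, the value was -0.63 and called lower (adjusted p = 0.0222), and array weights gave -0.61 (0.0250). With the mean of the muscle markers as a covariate, a fit added after the data had been seen, it was -0.37 (0.118), and over all 15 alternatives the adjusted p ran from 0.0222 to 0.301. The other Phgdh probe sets gave 0.04, -0.45 and -0.21, none called. All 4 end in the suffix _x_at, which Affymetrix gives where probes may match other sequences, and probe sets shared with the Phgdh pseudogenes Gm6756 and Gm8096 gave -0.45 and -0.64, neither called. Psph, which removes the phosphate to yield serine, gave 8.33, 8.09 and 8.58 in control and 8.42, 8.36 and 8.45 in YY1bKO tissue. All 3 YY1bKO values lay within the control range, and the log2 fold change was 0.08 ± 0.13 (SE, adjusted p = 0.734), with a 95% confidence interval from -0.23 to 0.38.

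In the cytosolic folate pathway Shmt1 rose, and Mthfd1 and Tyms were not called. Shmt1 splits serine into glycine and a folate-bound carbon unit. Its brightest probe set read 7.98, 7.86 and 7.99 in control and 8.57, 8.84 and 8.65 in YY1bKO tissue. These groups were apart by more than the spread within either. The log2 fold change was 0.75 ± 0.10 (SE, adjusted p = 0.00468). The other 3 Shmt1 probe sets also leaned upward, by 0.38, 0.20 and 0.37 on the log2 scale, but were not called over all probe sets (adjusted p = 0.0615, 0.320 and 0.177). The first of them, at 7.76, 7.70 and 7.86 against 8.10, 8.36 and 8.01, had groups that did not overlap. The mean over the 4 probe sets of Shmt1 accordingly gave 0.42, still called (adjusted p = 0.0339). The size of its rise thus depended on the probe set.

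Mthfd1, the cytosolic enzyme that interconverts folate-bound carbon units and captures formate, read 8.81, 9.24 and 9.06 in control and 9.16, 9.35 and 9.24 in YY1bKO tissue. The groups overlapped through control replicate 2, and the log2 fold change was 0.21 ± 0.12 (SE, adjusted p = 0.292). Its interval ran from -0.08 to 0.51. A second bright Mthfd1 probe set gave 0.20 and a dim one -0.13. Tyms makes thymidylate for DNA, and its 3 probe sets lay near the bottom of the scale, the brightest at 3.67 ± 0.07 in control and 3.80 ± 0.08 in YY1bKO tissue (SD, n = 3). The groups did not overlap, by a narrow margin, and the log2 fold change of 0.13 ± 0.08 (SE, adjusted p = 0.312) was not called. A less dim probe set shared by Tyms and its pseudogene Tyms-ps gave -0.21 (adjusted p = 0.375) and cannot be assigned to either.

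In the mitochondrial folate pathway Mthfd2 rose in both of its probe sets, and Shmt2 was not called in any of 4. Mthfd2 is a dehydrogenase and cyclohydrolase of the folate-bound carbon unit, best known from embryonic and dividing cells. Its brighter probe set read 6.80, 6.76 and 6.82 in control and 7.30, 7.53 and 7.57 in YY1bKO tissue, which is 0.67 ± 0.09 higher on the log2 scale (SE, adjusted p = 0.00619). The dimmer one read 6.18, 5.88 and 5.65 in control and 7.09, 7.31 and 7.69 in YY1bKO tissue. There the groups lay further apart, at a log2 fold change of 1.46 ± 0.19 (SE), or 2.75-fold (adjusted p = 0.00485 over all probe sets). The mean over both was 1.07 (adjusted p = 0.00378), so the direction of the rise was shared and its size was not settled. Shmt2, the mitochondrial counterpart of Shmt1, read 6.91, 6.98 and 6.85 in control and 6.69, 6.82 and 6.79 in YY1bKO tissue. Here the groups lay apart in the downward direction, by -0.15 ± 0.08 (SE), and the difference was not called (adjusted p = 0.256). Its interval ran from -0.33 to 0.04. The other 3 Shmt2 probe sets gave -0.03, 0.12 and 0.05, none called, so no direction was shared among them. Of the 4, only the one at 0.12 lacks the suffix _x_at, given where probes may match other sequences.

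**Figure D2:**
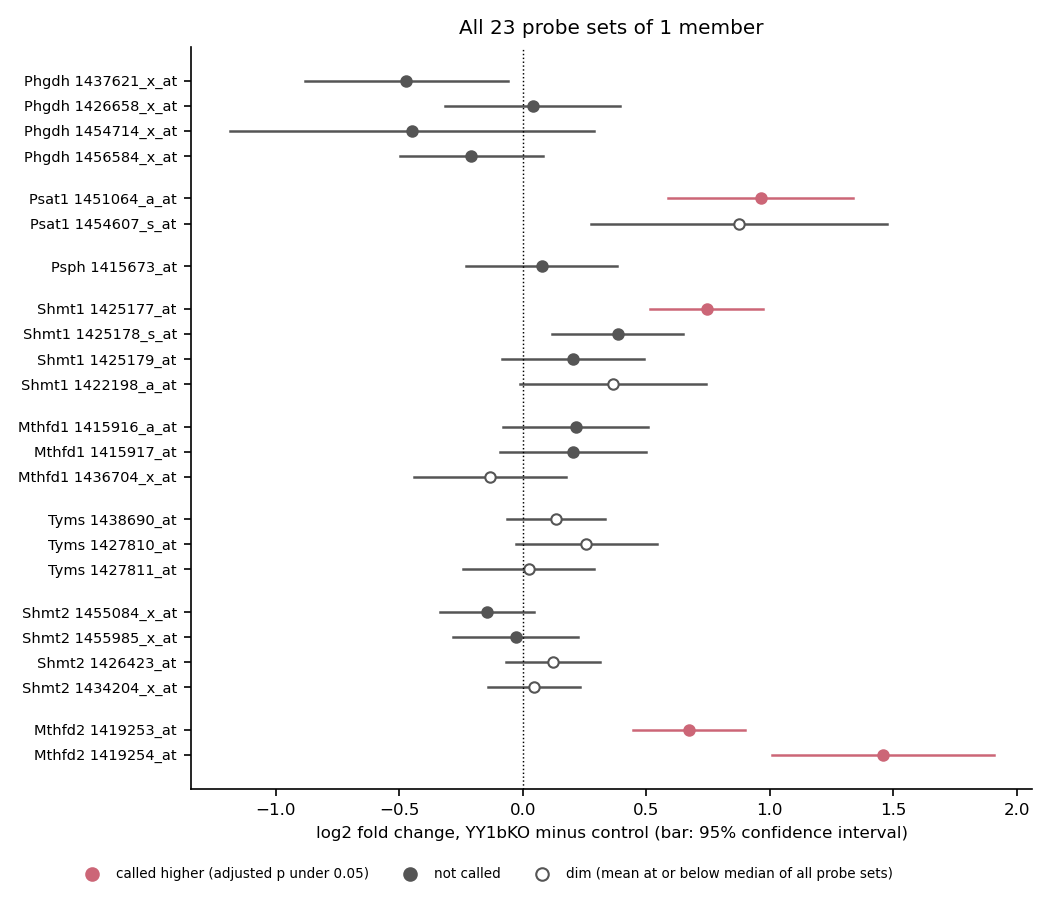
Log2 fold change, YY1bKO minus control, of each of the 23 probe sets that name 1 member, brightest first within a gene, with 95% confidence intervals from the fit over all probe sets (3 arrays per group). Red marks the 4 called higher, and open symbols mark dim probe sets. Both Mthfd2 probe sets and 1 each of Psat1 and Shmt1 are called, and no interval of Psph, Mthfd1, Tyms or Shmt2 leaves out 0. The interval of the brightest Phgdh probe set lies below 0 without a call.

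Over all single-gene probe sets of the members, 4 of 23 were called higher and 0 lower by limma, or 17.4% higher, beside 8.83% of all 22626 probe sets called higher and 7.16% lower, 16% together. In 8 of the 23 the groups did not overlap, beside 36.2% of all probe sets. Of the 23, 15 were bright. Probe sets of 1 gene share a target and are not independent of each other.

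Counterparts in the 2 compartments were also compared within arrays, by the brightest probe set of each gene. The log2 difference Shmt2 minus Shmt1 was -1.07, -0.87 and -1.14 on the control arrays and -1.88, -2.02 and -1.85 on the YY1bKO arrays. It shifted by -0.89, toward the cytosolic gene, on all 3 YY1bKO arrays. The Shmt2 probe set used here ends in _x_at, so its probes may match other sequences. For Mthfd2 minus Mthfd1 the difference was -2.01, -2.48 and -2.23 in control and -1.86, -1.82 and -1.67 in YY1bKO tissue. That is a shift of 0.46, toward the mitochondrial gene, and the groups did not overlap. Both had a two-sided exact permutation p of 0.1, the smallest that 3 against 3 arrays allow, and 0.1 after adjustment over the 2 pairs. The test thus cannot decide whether counterparts moved unequally. Each shift restates the difference between member fold changes given above and is no separate evidence. Averaging the probe sets within each gene gave shifts of -0.43 and 0.97, each with an exact permutation p of 0.1. A planned pair with Mthfd1l could not be formed. The values compare how probe sets moved and not the amounts of the transcripts.

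**Figure D3:**
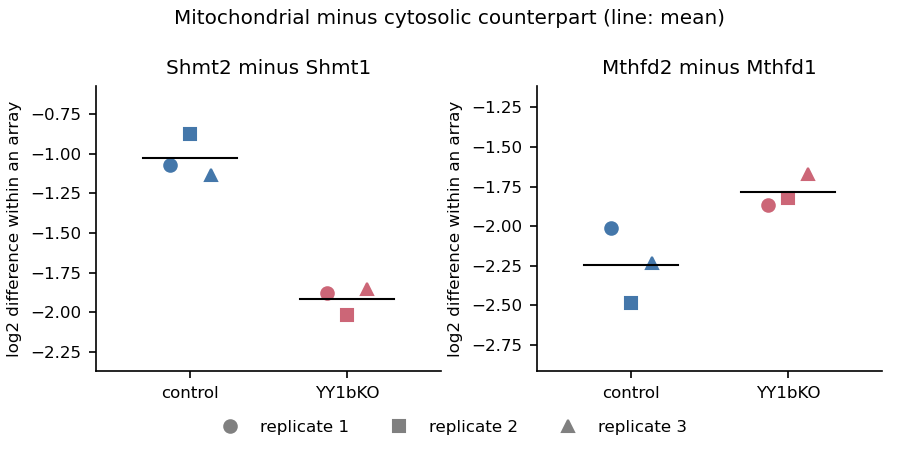
Log2 intensity of the mitochondrial gene minus that of its cytosolic counterpart on each of the 3 control (blue) and 3 YY1bKO (red) arrays, with the line at the mean and the marker shape giving the replicate. Shmt2 minus Shmt1 is lower and Mthfd2 minus Mthfd1 higher on every YY1bKO array than on any control array.

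Genes around the enzymes were taken from 11 lists. Of 6 measured genes of folate uptake and storage, 2 were lower and none higher, both of them carriers. That is 33.3% lower, beside 8.09% of all genes called lower and 10.2% called higher. Slc19a1, the reduced folate carrier of the cell surface, read 9.28, 9.18 and 9.23 in control and 8.45, 8.46 and 8.35 in YY1bKO tissue. The groups lay far apart relative to their spread, with a log2 difference of -0.81 ± 0.08 (SE, adjusted p = 0.00175). A second bright Slc19a1 probe set gave -0.85, and a dim one gave -0.05. Slc46a1, a proton-coupled folate transporter, gave -0.56 ± 0.10 (SE, adjusted p = 0.0123) from dim intensities, which missed the threshold when YY1bKO replicate 3 was omitted (adjusted p = 0.0534, range over alternatives 0.00453 to 0.0534). Fpgs, which adds glutamates to folate to keep it in the cell, had the highest value of this list, 0.20, and was not called. Among 3 measured genes of other folate interconversion, Aldh1l1, which burns the carbon unit of formyl-folate to carbon dioxide, fell 2.28-fold. Its values were 8.58, 8.04 and 8.79 in control and 7.48, 7.28 and 7.09 in YY1bKO tissue. The log2 fold change of -1.19 ± 0.21 (SE, adjusted p = 0.0115) was called, but a dim Aldh1l1 probe set gave 0.20. Aldh1l1 just missed the call when YY1bKO replicate 2 or 3 was left out (adjusted p = 0.0501 and 0.0503) and missed it when its probe sets were averaged (-0.49, adjusted p = 0.0644). Mtfmt, which formylates the initiator methionyl-tRNA of mitochondria, rose by 0.53 ± 0.13 (SE, adjusted p = 0.0376), but not when any array other than control replicate 2 was left out (adjusted p = 0.0694 to 0.112). Mthfd2l, Aldh1l2 and Slc25a32 were not analysed here.

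Glycine cleavage and the oxidation of methylated glycines also supply folate-bound carbon units in mitochondria. In the list made around them 1 of 7 genes was called lower, or 14.3%, beside 8.09% of all genes. Gcsh, the lipoate-bearing carrier protein of the glycine cleavage complex, read 12.09, 11.93 and 12.04 in control and 11.25, 11.33 and 11.13 in YY1bKO tissue. Those groups were well separated, at -0.78 ± 0.09 (SE, adjusted p = 0.00322), a 1.72-fold fall called under every alternative (adjusted p up to 0.0233). Gnmt, a glycine methyltransferase gene, had the highest value of this list, 0.25 at dim intensities, and was not called. Of 10 genes of serine and glycine transport, 1 was lower and 1 higher, or 10% each, near the 8.09% and 10.2% of all genes. Sfxn1, which carries serine into mitochondria, read 10.24, 10.26 and 10.91 in control and 9.77, 9.64 and 9.71 in YY1bKO tissue. Its log2 fold change was -0.76 ± 0.18 (SE, adjusted p = 0.0334), and its second probe set gave -0.92. Omitting any single YY1bKO array ended the Sfxn1 call (adjusted p = 0.0930 to 0.115). Sfxn2, of the same sideroflexin family, rose by 0.57 ± 0.10 (SE, adjusted p = 0.0102). Slc7a10, a neutral amino acid exchanger, gave the highest value of the list, 0.75, and missed the call (adjusted p = 0.103).

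Among genes that spend serine, both measured subunits of serine palmitoyltransferase, the entry enzyme of sphingolipid synthesis, rose. They were 2 of 6 in that list, or 33.3%, beside 10.2% of all genes called higher. Sptlc1 gave 0.47 ± 0.11 and Sptlc2 0.46 ± 0.11 (SE), with adjusted p of 0.0262 and 0.0357. Both calls ended when control replicate 1 or any single YY1bKO array was omitted (adjusted p = 0.0513 to 0.121), and that of Sptlc2 also on omission of control replicate 3 (0.0553). Ptdss1, a phosphatidylserine synthase, was the lowest of the list at -0.08. In the methionine cycle 1 of 6 genes, or 16.7%, was called higher. It was Mtrr, the reductase that keeps methionine synthase active, with 0.74 ± 0.15 (SE, adjusted p = 0.0193). Its call ended on omission of control replicate 1 or of YY1bKO replicate 1 or 2 (adjusted p = 0.0663, 0.0728 and 0.0757). Bhmt2 was the lowest of the list at -0.15. Neither transsulfuration gene was called, Cbs at 0.12 and Cth at -0.51, both dim.

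Genes of nucleotide synthesis, a consumer of the carbon units, were called in both directions. In the purine list 16.7% were higher and 16.7% lower, beside 10.2% and 8.09% of all genes. Of 6 genes of purine synthesis Prps1, which makes the activated ribose phosphate, fell by 0.60 and the dim Prps2 rose by 0.44 on the log2 scale (adjusted p = 0.0168 and 0.0407). Omitting replicate 1 of either group ended the Prps1 call (adjusted p = 0.0610 for control and 0.0554 for YY1bKO). The Prps2 call ended on omission of control replicate 1 or of a single YY1bKO array (0.0920 to 0.135), and its averaged probe sets gave 0.26 (0.101). Ppat, the committing enzyme, gave 0.53 with overlapping groups and was not called. In the list of deoxynucleotide supply 2 of 7, or 28.6%, were higher. These were Dctpp1, a dCTP pyrophosphatase, by 0.38 and Rrm2b, a ribonucleotide reductase subunit, by 0.42 (adjusted p = 0.0174 and 0.0245). Omission of control replicate 1 or of YY1bKO replicate 1 or 3 ended the Dctpp1 call (adjusted p = 0.0621 to 0.0724). That of Rrm2b ended on omission of any array other than control replicate 2 (0.0669 to 0.0910). Rrm2, the subunit of dividing cells, gave -0.45 and was not called. Among 18 genes of S phase and mitosis 5 were higher and 1 lower, or 27.8% and 5.56% beside 10.2% and 8.09% of all genes, with a mean over the list of 6.29 ± 0.22 in control and 6.32 ± 0.05 in YY1bKO tissue (SD, n = 3). The replication helicase genes Mcm7 and Mcm4 rose by 0.62 and 0.57 (adjusted p = 0.0050 and 0.00575). Cdc6, which loads that helicase, was lower by -0.72 at dim intensities, but not on omission of control replicate 1 or of YY1bKO replicate 1 or 2 (adjusted p = 0.0685 to 0.0772). Kif11, a mitotic kinesin, was called with 0.87 at dim intensities, but its other probe sets gave -0.40 and -0.54. The average over all its probe sets was -0.02. Of these 5 higher genes, the count fell to 3 on omission of any single YY1bKO array.

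Of 24 measured targets and partners of ATF4, 7 were higher and 2 lower, or 29.2% and 8.33%, beside 10.2% and 8.09% of all genes. Its median log2 fold change was 0.23. Omitting control replicate 3 left 4 higher genes, omitting YY1bKO replicate 2 left 2 and omitting YY1bKO replicate 3 left 3. Atf4 itself read 10.81, 10.64 and 10.82 in control and 10.52, 10.87 and 10.76 in YY1bKO tissue, with no shift in its mean beyond that spread (-0.04 ± 0.11, SE, adjusted p = 0.844). Its other probe sets gave -0.40 and 0.15, neither called. Asns, the asparagine synthetase gene often read as an ATF4 reporter, gave 0.20 ± 0.13 (SE, adjusted p = 0.349), with overlapping groups. Slc3a2, the heavy chain of amino acid exchangers, rose most, from 8.61, 8.35 and 8.59 to 10.30, 10.51 and 10.36. That is 3.68-fold (adjusted p = 0.000479). Trib3, a pseudokinase, rose 3.57-fold, from 7.68, 7.004 and 7.18 to 8.32, 9.15 and 9.90, but not called when control replicate 3 (adjusted p = 0.0609) or YY1bKO replicate 2 (0.0802) was omitted. Ddit3, a stress-induced transcription factor, rose 2.07-fold (adjusted p = 0.0264), but was not called on omission of control replicate 3 or of YY1bKO replicate 2 or 3 (0.0718, 0.0987 and 0.0937). Fgf21, a hormone, rose 3.07-fold from dim intensities (adjusted p = 0.00901). Ppp1r15a, which restarts translation after stress, rose by 0.51 (adjusted p = 0.0123), and missed the call when YY1bKO replicate 2 (0.0564) or 3 (0.0527) was omitted. Vldlr, a lipoprotein receptor, fell by 0.52 on the log2 scale (adjusted p = 0.00663), and Ddit4, an inhibitor of growth signalling, had the lowest value, -1.11, without a call (adjusted p = 0.0632).

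**Figure D4:**
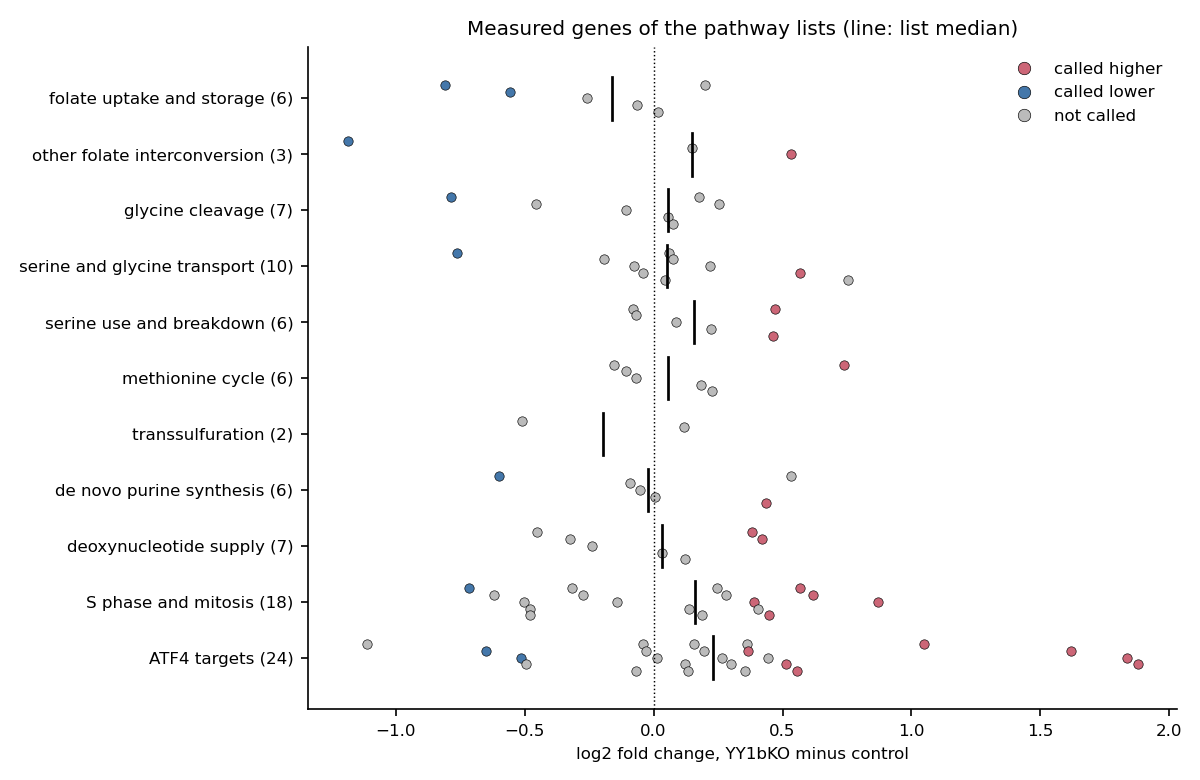
Log2 fold change, YY1bKO minus control, of every measured gene of the 11 pathway lists, with the number of genes in brackets and a line at each list's median. Red marks genes called higher, blue genes called lower and grey genes not called. Folate uptake holds 2 lower and no higher gene, and the ATF4 list reaches furthest to the right, with Slc3a2 at 1.88.

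Over the 95 genes measured from these lists, members aside, 20 were higher and 9 lower, or 21.1% and 9.47%, beside 10.2% and 8.09% of all genes, with a median of 0.08. The number of higher genes ranged from 7 to 20 when single arrays were left out. Omitting YY1bKO replicate 1, 2 or 3 left 11, 7 and 8, and omitting control replicate 1 left 10. The lower genes numbered 5 when YY1bKO replicate 1 or 2 was omitted and 14 when control replicate 2 was.

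By Pearson's r over the 6 arrays, among 6918 other bright genes, the genes most like Psat1 were 2610005L07Rik, Hpf1 and H2-D1 (r of 0.995 to 0.997). Those most like Shmt1 were Mif, Irf9 and Nifk (0.996 to 0.997), and those most like Mthfd2 were Ndufaf4, Nfyc and Rrn3 (0.997 to 0.999). Between 259 and 336 genes reached an r of 0.95 with each of these members, so many genes are nearly as alike over 6 arrays as those named. Group means were not removed, so r also carries the difference between the groups by which these members were called.

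Markers of some other cells also differed between the groups. The mean log2 intensity of 8 endothelial markers was 8.23 to 8.48 on control and 7.73 to 7.96 on YY1bKO arrays (two-sided exact permutation p = 0.1, the smallest possible). Of the 8, 7 were bright and 3 were called lower, or 37.5%, beside 8.09% of all genes. For 9 lymphocyte markers, all dim, the mean was 4.85 to 5.04 in control and 5.05 to 5.21 in YY1bKO tissue. Of these 9, 1 was called higher, or 11.1%, near the 10.2% of all genes. The means of 11 macrophage markers overlapped, at 7.82 to 8.46 and 8.14 to 8.33. Of these 11, 1 was called lower, Cd163 at -0.79 (adjusted p = 0.0330), or 9.09%, near the 8.09% of all genes. Of 15 skeletal muscle markers 2 were called higher, or 13.3%, near the 10.2% of all genes. The probe sets for poly-A controls of labelling had means of 6.67 to 6.93 on control and 6.46 to 6.63 on YY1bKO arrays. The part of endothelial cells, lymphocytes or labelling in the member results was not tested. A fit with the muscle markers as a covariate was added after the data had been seen. It gave rises of 1.07 for Psat1, 0.77 for Shmt1 and 0.69 for Mthfd2, all called (adjusted p = 0.00183, 0.00271 and 0.00383). That covariate includes Myh7 and Tnnt1, themselves called higher by 1.72 and 1.59 on the log2 scale. The part of muscle in the member results was not tested either.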

How the data were processed

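Total RNA of brown adipose tissue was labelled from 6 ug with biotin and hybridised to Affymetrix arrays, per the labels' protocols. The deposited intensity values of 22690 probe sets on 6 arrays were made with RMA, per the submitters' processing notes, which name no software version or settings. The values lie on a linear scale and were taken to log2 without a pseudocount. RMA equalises array distributions, which hides a shift common to most transcripts, and it shrinks changes of dim probe sets. A dim probe set has a mean at or below 6.49, the median of all. The number of arrays limits the precision.

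The 64 control probe sets were left out, and 20380 of 22626 probe sets had 1 gene symbol. Each of 12393 genes was represented by its brightest probe set. The limma functions lmFit and eBayes (version 3.58.1, R 4.3.3) compared the groups, two-sided, with Benjamini-Hochberg adjustment over all genes, or over all 22626 probe sets for values of single probe sets. Fits were tested on simulated data. Single values per array were compared by exact permutation tests. Replicates may be technical, since no label calls them separate animals, and p-values then measure only the spread between samples. Genes of the lists were named by a rule: fixed names, up to 4 called genes of each list, with groups that do not overlap, by smallest p and its highest and lowest value, and the 3 genes most like each called member. The members and lists were chosen with earlier results of these data known.

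Alternatives were a test without dim genes, averaged probe sets, quantile normalization, median centring, a pseudocount of 16, trend and robust options, array weights, a replicate block, an added fold of 1.5 and leaving out each array. The muscle covariate was added after the data had been seen. Promoter windows are those of RefSeq, GRCm38.p6.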

Additional observations from a re-analysis of the deposited data

How the results depend on the processing

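Psat1, Shmt1 and Mthfd2 stayed called higher under every alternative, and Phgdh was the 1 member called lower in some: 1 member gene and 1 member probe set were called lower with array weights and without control replicate 2, and 0 without any other array. Called member probe sets that were higher numbered 4 to 5 when single arrays were left out. Over all genes, leaving out single arrays gave 547 to 1661 higher and 466 to 1439 lower genes, against 1267 and 1003 with all arrays. An added fold of 1.5, which can only remove calls, left 469 and 562, and 7 higher pathway genes. The muscle covariate, chosen after seeing the data, gave 1784 lower genes. Array weights gave 14 lower pathway genes, and leaving out arrays gave 7 to 20 higher and 5 to 14 lower ones. Kif11 turned to -0.0206 when its probe sets were averaged (adjusted p = 0.930), where its probe sets disagree. For the other changes the cause was not tested. Shmt2 minus Shmt1 stayed between -0.95 and -0.81 and Mthfd2 minus Mthfd1 between 0.34 and 0.57 when single arrays were left out. Same-numbered arrays of the groups correlated at -0.25, 0.11 and 0.26 in their deviations, so they share only a number; the replicate block gave 671 higher and 639 lower genes and 9 higher pathway genes, 4 of them in the ATF4 list, and ended no member call. It ended the calls of Slc46a1, Mtfmt, Sfxn1, Sptlc1, Sptlc2, Prps2, Dctpp1, Rrm2b, Cdc6, Trib3 and Ddit3 (adjusted p = 0.05002 to 0.1005). Dim probe sets, those of Tyms above all, limit what can be seen of a change.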
